A study of Homo sapiens with 24 samples.

Results

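The genes described here are 9 small heat shock protein genes, CRYAB, CRYAA, HSPB1, HSPB2, HSPB3, HSPB6, HSPB7, HSPB8 and HSPB11, together with BAG3, the co-chaperone that works with them. They were looked up by Ensembl identifier in the RNA-Seq counts of SW872, an established human liposarcoma line. The counts listed 60279 genes and included all 10 members. Of these, 8 averaged 5 or more counts over the 24 libraries and were tested among 19997 genes, while CRYAA and HSPB2 fell short. HSPB3 and HSPB7 had 6 or fewer counts in every EV library. Outside the groups in which they were most clearly higher, HSPB3 averaged 7.5 counts but HSPB7 4.6, so HSPB7 passed the filter only through those groups, and its values are also given from the fit with no filter beyond 1 count. The family was chosen by its CRYAB value, which stood 8th in log2 fold change among all tested genes in TAZ-CAMTA1 against empty vector. For this reason every value of that comparison, and every CRYAB value that uses empty vector or TAZ-CAMTA1 libraries, is given as a description with no test.

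SW872 cells carried the pBabeNeo retroviral vector with 1 of 6 inserts or none, as pooled stable lines after drug selection, and each group had 3 libraries. Confluent groups were collected 48 h after confluence. They were the empty vector (EV), the 2 fusions TAZ-CAMTA1 and YAP-TFE3, which join the amino-terminal part of TAZ or YAP to the carboxy-terminal part of CAMTA1 or TFE3, the hyperactive forms TAZ4SA and YAP5SA, in which serines phosphorylated by the LATS kinases are alanines, and full-length TFE3. Full-length CAMTA1 was collected before confluence, with its own sub-confluent empty vector (EVsub). The inserts were added to cells that had their own YAP and TAZ genes, and the level of an insert in single cells was not measured. Per the study's methods, the 3 libraries of a group came from cells that were transduced and selected separately.

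Library totals ranged from 19700277 to 35287476 counts. WWTR1, the gene of TAZ, was at 134 ± 0.538 CPM (counts scaled to library size, SD, n = 3) in the libraries labelled TAZ4SA and at 204 ± 20.3 CPM in EV, which goes against the label at the RNA level. WWTR1 was also below EV in TAZ-CAMTA1 (181 ± 2.15 CPM), which does carry a part of TAZ in its insert. It was below EV too in YAP-TFE3 (126 ± 3.17 CPM) and YAP5SA (68.7 ± 1.66 CPM), which carry no TAZ insert. RNA of the insert and of the cell's own gene cannot be told apart in these counts. The study reports a western blot for the Flag-tagged TAZ4SA protein in SW872 cells. YAP-TFE3 replicate 3 stood apart from the other YAP-TFE3 libraries. Its chi-square per gene against them was 56.2 and 71.4, compared with 11.1 for the other pair and 3.33 to 25.9 in the other groups, and member values in YAP-TFE3 are therefore also given without it. Mesenchymal markers summed to between 1078 and 2768 CPM in all libraries, with 1314 to 1514 CPM in EV and 1078 to 1226 CPM in YAP-TFE3. The 4 endothelial markers summed to 79.7 to 119 CPM in EV, 35.6 to 52.8 in YAP-TFE3 and 13.2 to 18.2 in YAP5SA. Of 5 adipocyte markers, ADIPOQ and LEP had at most 3 counts in every library.

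Small heat shock proteins share the alpha-crystallin domain, assemble into oligomers and hold unfolding proteins in a soluble state without using ATP. CRYAB (alpha-B crystallin) and HSPB1 (HSP27) are the broadly expressed members and bind filament proteins such as desmin and vimentin, CRYAA belongs mainly to the eye lens, and HSPB2, HSPB3, HSPB6 and HSPB7 are known best from heart and skeletal muscle. HSPB8 forms a complex with BAG3 and HSPA8 that hands damaged proteins such as filamin to autophagy. HSPB11 (also named IFT25) is a subunit of the intraflagellar transport machinery of cilia and carries the family name only by an older assignment.

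The heat shock factor HSF1 drives many of these genes from heat shock elements, and TEAD factors carry YAP and TAZ to DNA. The 250 bases before the RefSeq start (GRCh38.p14, plus strand for all 3) are therefore shown for HSPB1, the leading member in empty vector, and for HSPB8 and HSPB3, both of which rose with YAP-TFE3. Capitals mark the motifs searched, on either strand: the heat shock element forms GAANNTTC and TTCNNGAA, the TEAD core GGAATG, which reads on the other strand as CATTCC, the E-box CACGTG bound by TFE3, and the TATA box TATAAA. None of these letters overlap between the motifs found.
HSPB1, chr7:76302423-76302672: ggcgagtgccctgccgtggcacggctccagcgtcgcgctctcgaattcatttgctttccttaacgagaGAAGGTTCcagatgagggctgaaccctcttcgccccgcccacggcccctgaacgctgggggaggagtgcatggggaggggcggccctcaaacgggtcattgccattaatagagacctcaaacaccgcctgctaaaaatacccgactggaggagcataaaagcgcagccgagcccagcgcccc
HSPB8, chr12:119178681-119178930: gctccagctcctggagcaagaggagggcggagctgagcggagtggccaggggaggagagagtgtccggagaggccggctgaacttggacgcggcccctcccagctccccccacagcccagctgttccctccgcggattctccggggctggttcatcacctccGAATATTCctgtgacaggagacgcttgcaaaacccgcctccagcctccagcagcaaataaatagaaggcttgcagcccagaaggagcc
HSPB3, chr5:54455449-54455698: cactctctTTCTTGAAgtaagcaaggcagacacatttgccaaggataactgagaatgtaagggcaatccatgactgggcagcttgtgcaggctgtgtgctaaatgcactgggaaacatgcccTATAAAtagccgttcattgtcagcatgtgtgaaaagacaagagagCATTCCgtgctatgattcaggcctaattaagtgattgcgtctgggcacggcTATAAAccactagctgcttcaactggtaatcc

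A promoter was found for 8 of the 10 members and not for CRYAB and HSPB2. HSPB8 held GAANNTTC as GAATATTC from position -88 to -81 before its start, HSPB1 held it as GAAGGTTC from -182 to -175, and HSPB6 held both heat shock forms. HSPB3 held TTCNNGAA, the TEAD core at -83 to -78 and TATAAA at 2 places, and HSPB7 held GGAATG at -187 to -182. Promoter 2 of CRYAA also held the TEAD core, as CATTCC from -137 to -132. BAG3 and IFT25 held none of the motifs, and no member promoter held CACGTG. Over all 35116 RefSeq promoters of the same length, 5.78% held GAANNTTC, 6.62% held TTCNNGAA, 11.9% held GGAATG, 6.34% held CACGTG and 10.7% held TATAAA. A match describes letters in the window and not a bound site, and sequence outside the window was not searched. By the study's ChIP-Seq in SW872, the fusions and hyperactive forms bound mostly distal intergenic sequence, and the fusions also bound nearer to starts.

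CRYAB was by far most abundant in YAP-TFE3 cells. The gene (ENSG00000109846, GRCh38 chromosome 11, 111908564 to 111923722, minus strand) encodes alpha-B crystallin, a chaperone of desmin, vimentin and titin. Its level was 4.59, 5.29 and 3.39 CPM in EV and 1149, 1300 and 2116 CPM in YAP-TFE3, a log2 fold change of 8.41 (SE 0.28) or 340-fold. All YAP-TFE3 libraries lay above every library of any other group. CRYAB ranked 11462 to 12329 by count among all genes in EV and 24 to 56 in YAP-TFE3, where its 35360 to 73215 counts made up 0.117% to 0.208% of the library. Without YAP-TFE3 replicate 3, the highest library, the log2 fold change was 8.10.

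Some adipocyte markers were also highest in YAP-TFE3. FABP4, a fatty acid carrier, had 17 to 23 counts in the YAP-TFE3 libraries and at most 1 in every other library. PPARG, the fat cell transcription factor, had 46.3, 51.0 and 42.9 CPM in EV and 99.4, 100.2 and 62.2 CPM in YAP-TFE3. It rose by 0.90 on the log2 scale (edgeR adjusted p = 8.02e-06), and by 1.10 without YAP-TFE3 replicate 3, which was its lowest YAP-TFE3 library and the highest for CRYAB. PLIN1, of the fat droplet surface, had a log2 difference of 0.09 (edgeR adjusted p = 0.849). The 5 adipocyte markers summed to 63.1 to 102 CPM in YAP-TFE3, 56.4 to 70.6 in TAZ-CAMTA1, 43.8 to 51.8 in EV, 29.5 to 37.2 in YAP5SA and 27.8 to 31.9 in the libraries labelled TAZ4SA. Their part in the CRYAB values was not tested.

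**Figure D1:**
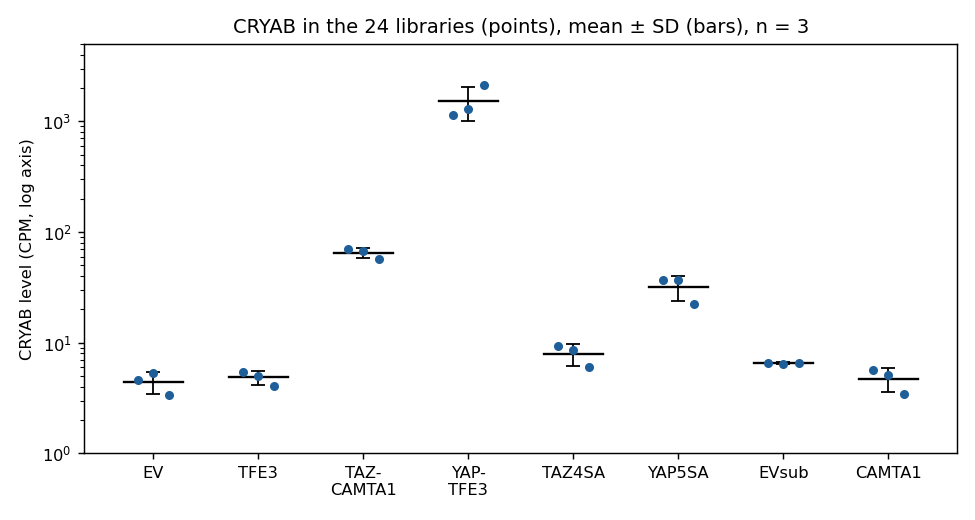
CRYAB level in CPM (log axis) in each library (points) of the 8 groups (x axis), with the group mean as a line and the SD as a bar (n = 3). The YAP-TFE3 libraries sit between 1149 and 2116 CPM, TAZ-CAMTA1 between 57.6 and 70.9, YAP5SA between 22.3 and 36.9, and the libraries of the other 5 groups at or below 9.32.

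TAZ-CAMTA1 libraries held CRYAB at 70.9, 67.3 and 57.6 CPM, with a log2 fold change over EV of 3.87 (SE 0.24). Their level was higher than in any YAP5SA library (36.9, 36.9 and 22.3 CPM) and far below that of YAP-TFE3. Between the fusions the log2 difference was 4.54 (SE 0.22), a 23.3-fold lower level in TAZ-CAMTA1, written -4.54 with YAP-TFE3 as the reference, and -4.23 without YAP-TFE3 replicate 3. The libraries labelled TAZ4SA held 9.32, 8.67 and 5.98 CPM, all above EV and all far below TAZ-CAMTA1. The order of group means was EV, CAMTA1, TFE3, EVsub, TAZ4SA, YAP5SA, TAZ-CAMTA1 and YAP-TFE3. The last 3 groups were each separated from the group below, as was EVsub from TFE3, and the other neighbours overlapped.

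YAP-TFE3 and its hyperactive parent could be compared without the TAZ-CAMTA1 and EV libraries, whose CRYAB value chose the gene. Earlier results of these data were known when the members were chosen, so the comparison is not fully independent of that choice. The fit still took its estimate of spread from all 24 libraries, EV and TAZ-CAMTA1 among them. CRYAB was 47.6-fold higher in YAP-TFE3 than in YAP5SA, with a log2 fold change of 5.57 (SE 0.24, adjusted p = 5.12e-15 by edgeR), and 5.26 without YAP-TFE3 replicate 3 (edgeR adjusted p = 2.06e-15). In that comparison edgeR called 52.4% of all tested genes at an adjusted p under 0.05, and CRYAB ranked 50th by log2 fold change. None of 13 alternative settings lost the CRYAB call, the fit of only these groups among them. Full-length TFE3 held CRYAB at 5.43, 5.03 and 4.10 CPM, which overlapped EV, with a log2 difference of 0.12 (SE 0.26). Full-length CAMTA1 held 5.62, 5.09 and 3.44 CPM against 6.59, 6.44 and 6.61 CPM in EVsub. That log2 difference of -0.45 (SE 0.25) did not pass (edgeR adjusted p = 0.509), although the groups did not overlap. With no filter beyond 1 count it passed (adjusted p = 0.0322).

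HSPB2 starts inside the CRYAB gene on the opposite strand (chromosome 11, 111912734 to 111914093) and shares 85.5% of its exon bases with CRYAB or with the read-through gene HSPB2-C11orf52. CRYAB in turn shares 13.6% of its exon bases (598 bases) with the opposite strand, all of them with exons of HSPB2. The spans of HSPB2-C11orf52 and C11orf52, on that strand, also overlap the CRYAB gene. The libraries were made with a stranded kit, but the strand setting of the counting was not given in the sources used here. HSPB2 had 14, 9 and 8 counts in YAP-TFE3, 6, 7 and 3 in TAZ-CAMTA1, and at most 4 in any other library. Over the 3 YAP-TFE3 libraries this made 31 HSPB2 counts beside 149989 CRYAB counts, and over EV 8 beside 342. HSPB2-C11orf52 had 2 counts over YAP-TFE3 and C11orf52 had 5. CRYAA, the lens partner of CRYAB, had a total of 1 count, in a YAP-TFE3 library.

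Genes within 100 kb of CRYAB moved far less than CRYAB. Of 14 annotated neighbours, HSPB2 included, 10 were too low to test, with at most 14 counts in any library. The nearest tested gene, DIXDC1, begins 3.42 kb away and encodes a Wnt pathway protein. It was lower in YAP-TFE3 than in EV (log2 fold change -0.42, edgeR adjusted p = 0.00857), with 36.9, 35.9 and 62.2 CPM beside 60.5, 63.0 and 57.8 CPM, so that YAP-TFE3 replicate 3 lay inside the EV range, and the value was -0.73 without it. It was also lower in the libraries labelled TAZ4SA (-1.41, adjusted p = 5.90e-09) and in YAP5SA (-1.14, adjusted p = 1.66e-07). CFAP68, a ciliary gene, and FDXACB1 fell by 0.73 and 1.18 on the log2 scale in YAP-TFE3 (edgeR adjusted p = 3.17e-05 and 0.00115), and ALG9, a glycosylation enzyme, rose by 0.42 (adjusted p = 0.00214). Without YAP-TFE3 replicate 3 these values were -0.70, -1.46 and 0.51. The other neighbours were HSPB2-C11orf52, C11orf52, ALG9-IT1, GNG5P3, RPL37AP8, RNA5SP351, ENSG00000258529, ENSG00000255286 and ENSG00000255334.

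HSPB1, the other broadly expressed member and the most abundant one in EV, stayed within a narrow range. The gene (chromosome 7, 76302673 to 76304295, plus strand) encodes HSP27, a chaperone that also acts on actin filaments. Group means lay between 257 and 365 CPM. EV libraries had 283, 287 and 278 CPM and YAP-TFE3 libraries 235, 293 and 395 CPM, and these overlapped (log2 fold change 0.12, SE 0.15, adjusted p = 0.520 by edgeR). YAP-TFE3 replicate 3 was again the highest of its group, and without it the value was -0.10 (adjusted p = 0.583). The libraries labelled TAZ4SA had 401, 368 and 324 CPM, above all EV libraries, with a log2 fold change of 0.37 (SE 0.15, adjusted p = 0.0420 by edgeR). That call was lost with total-count scaling (0.17, adjusted p = 0.309) and in 5 of 6 fits that left out 1 library, among them the fit without TAZ4SA replicate 1 (0.29, adjusted p = 0.157). Leaving out TAZ4SA replicate 2 gave 0.36, and leaving out EV replicate 1, 2 or 3 gave 0.37, 0.38 or 0.35. Processed copies of HSPB1 lie elsewhere in the genome, so its counts are uncertain to that extent.

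Per exon length, CRYAB took the place of HSPB1 as the leading family member in YAP-TFE3. On the scale of CPM per kb of exon, summed over the 9 genes without BAG3, HSPB1 made up 91.8% ± 0.175 of the family level in EV and CRYAB 0.530% ± 0.106. In YAP-TFE3, CRYAB made up 58.8% ± 2.62, HSPB1 32.6% ± 1.70 and HSPB8 6.41% ± 0.815. All shares and ratios here rest on union exon lengths, 4388 bases for CRYAB and 1623 for HSPB1. The lengths of the transcripts made in these cells were not measured, and other lengths would change the shares. The ratio of CRYAB to HSPB1 was 1.64 to 1.98 in the 3 YAP-TFE3 libraries, a narrower spread than the levels of either gene, and 0.00452 to 0.00682 in EV. CRYAB made up 7.13% ± 0.918 in TAZ-CAMTA1, 3.55% ± 0.591 in YAP5SA and under 1% in the other groups. The family total was 190 ± 3.47 CPM per kb in EV and 585 ± 174 in YAP-TFE3.

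**Figure D2:**
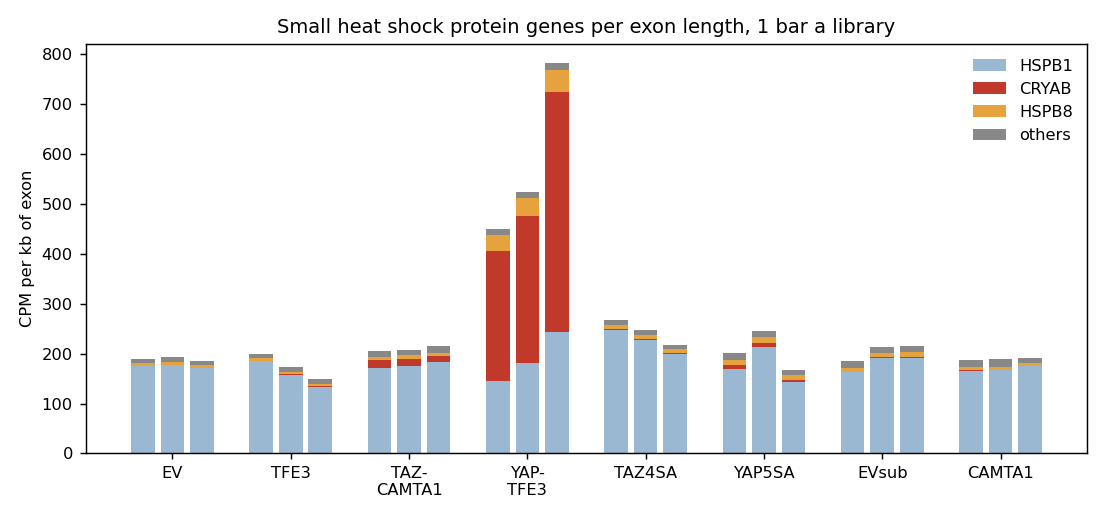
Level in CPM per kb of exon (y axis) of HSPB1, CRYAB, HSPB8 and the other 6 small heat shock protein genes, stacked, 1 bar a library, with groups on the x axis. The YAP-TFE3 bars are the tallest and are mostly CRYAB, with a mean share of 58.8%, while HSPB1 fills most of every other bar.

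HSPB8, the partner of BAG3 in chaperone-assisted autophagy, rose with YAP-TFE3, YAP5SA and the libraries labelled TAZ4SA. Its level (chromosome 12, 119171555 to 119224855, plus strand) was 17.8, 20.03 and 19.4 CPM in EV and 110.8, 129.1 and 153.1 CPM in YAP-TFE3, with no overlap. The log2 fold change was 2.78 (SE 0.11, adjusted p = 2.70e-15 by edgeR), or 6.88-fold, and 2.66 without YAP-TFE3 replicate 3, the highest library. YAP5SA libraries had 40.2, 41.9 and 35.8 CPM (log2 fold change 1.04, SE 0.11, adjusted p = 4.66e-08 by edgeR), and the libraries labelled TAZ4SA 31.7, 30.7 and 26.9 CPM (0.64, SE 0.11, adjusted p = 4.56e-05). All of these lay above EV. TAZ-CAMTA1 libraries had 24.7, 24.7 and 20.9 CPM, also above EV, with a log2 difference of 0.30 (SE 0.11). YAP-TFE3 thus exceeded its hyperactive parent by 1.74 on the log2 scale (SE 0.11, adjusted p = 4.62e-12 by edgeR), and TAZ-CAMTA1 differed from YAP-TFE3 by -2.48 (SE 0.11, adjusted p = 2.74e-14). Without YAP-TFE3 replicate 3 these were 1.61 and -2.36.

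In contrast to YAP-TFE3, TAZ-CAMTA1 held less HSPB8 than its own hyperactive parent. The log2 fold change against the libraries labelled TAZ4SA was -0.34 (SE 0.11, adjusted p = 0.0108 by edgeR). The value was -0.15 with total-count scaling (adjusted p = 0.197) and -0.30 without TAZ4SA replicate 1 (adjusted p = 0.0519), and in both the call was lost. Full-length TFE3 overlapped EV for HSPB8, with 20.1, 17.7 and 17.3 CPM. CAMTA1 libraries, at 23.2, 23.01 and 20.3 CPM, lay below all EVsub libraries at 27.9, 30.6 and 31.3 CPM (log2 fold change -0.43, SE 0.11, adjusted p = 0.0410 by edgeR). That call was lost whichever of the 6 libraries was left out, with values from -0.48 to -0.38 and adjusted p-values from 0.0561 to 0.168.

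BAG3, which links HSPB8 to the HSP70 chaperones, moved far less than HSPB8. The gene lies on chromosome 10, 119651380 to 119677819, plus strand. It had 28.8, 31.0 and 32.9 CPM in EV and 33.3, 36.3 and 37.8 CPM in YAP-TFE3. These did not overlap, but the log2 fold change of 0.21 (SE 0.10) did not pass (edgeR adjusted p = 0.0661), whereas it passed at 0.27 without YAP-TFE3 replicate 1 (adjusted p = 0.0427) and was 0.18 without replicate 3 (adjusted p = 0.158). BAG3 rose in the libraries labelled TAZ4SA (43.1, 45.3 and 36.1 CPM, log2 fold change 0.43, edgeR adjusted p = 7.06e-04) and in YAP5SA (42.9, 41.5 and 38.2 CPM, log2 fold change 0.40, adjusted p = 0.00139). Per exon length, the ratio of HSPB8 to BAG3 was 0.472 ± 0.0218 in EV, 0.735 ± 0.0318 in YAP5SA and 2.78 ± 0.282 in YAP-TFE3. On this scale HSPB8 exceeded BAG3 only in the YAP-TFE3 libraries among the 8 groups. The scale rests on union exon lengths of 3581 bases for HSPB8 and 2737 for BAG3. Without the division by length, the YAP5SA means were nearly equal, at 39.28 CPM for HSPB8 and 40.85 CPM for BAG3.

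**Figure D3:**
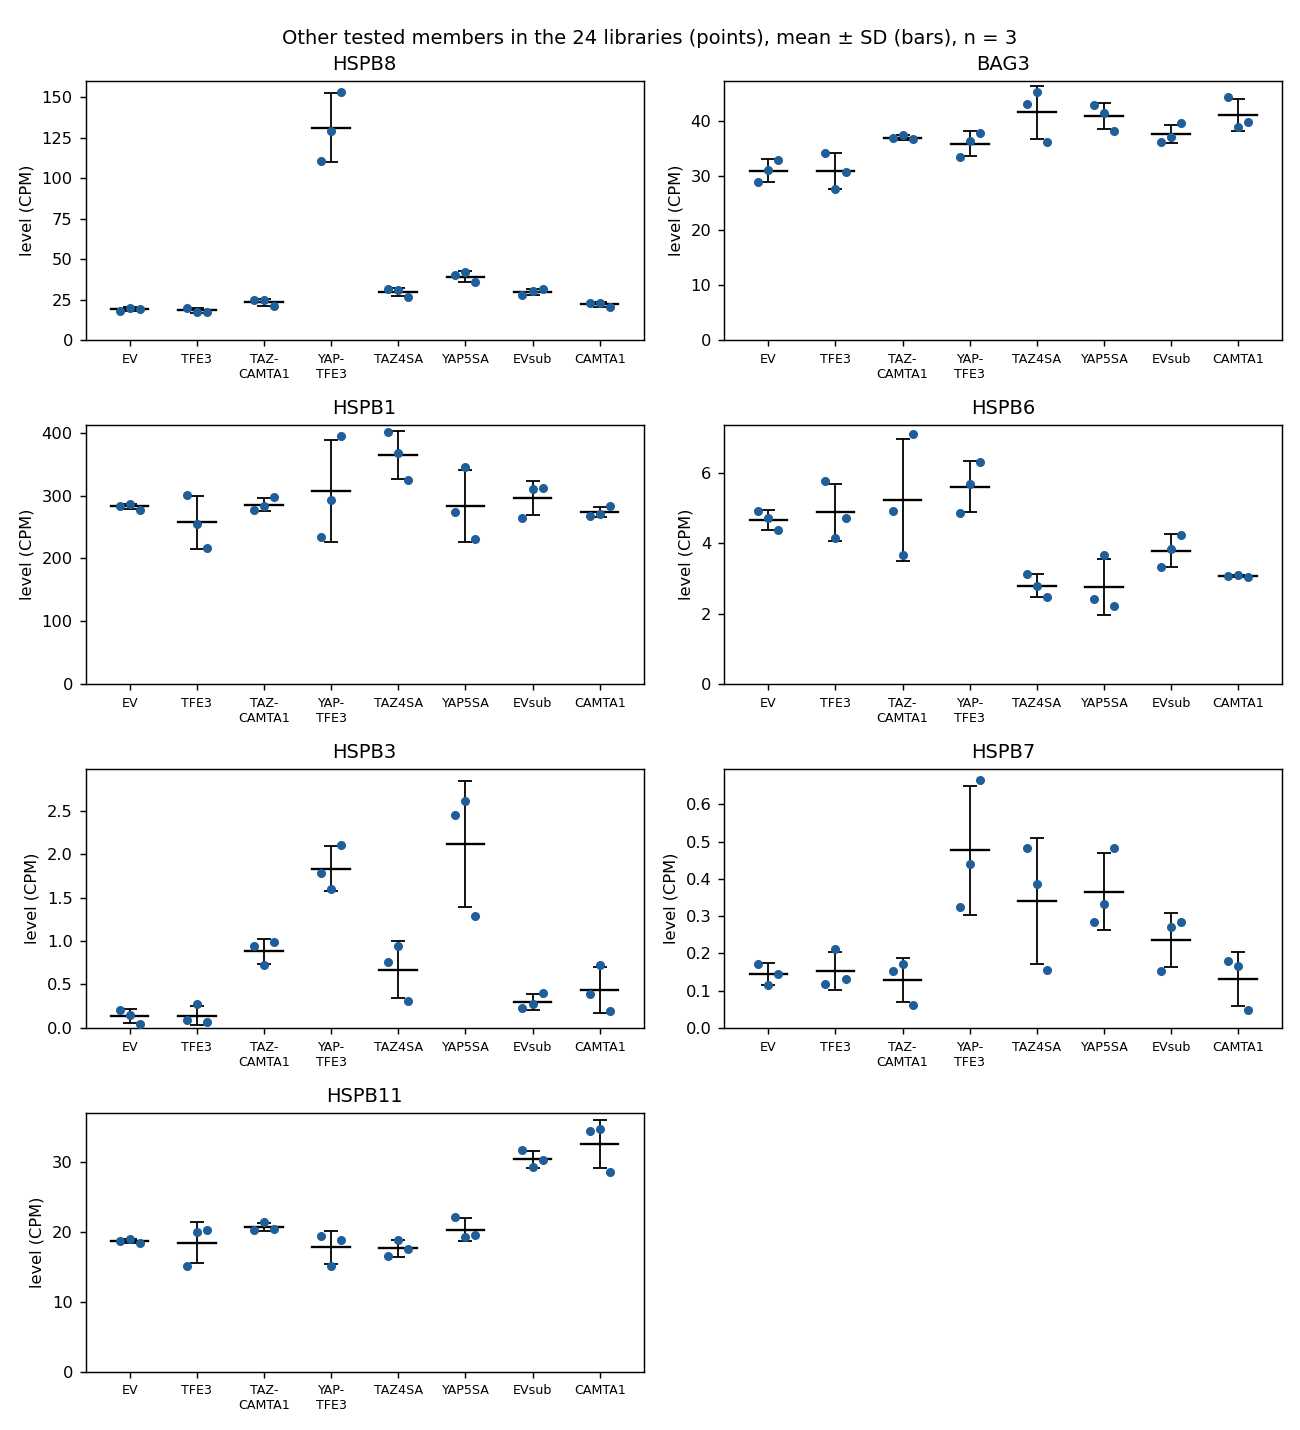
Levels in CPM (y axes from 0) of the 7 tested members other than CRYAB in each library (points) of the 8 groups, with the mean as a line and the SD as a bar (n = 3). HSPB8 stands highest in YAP-TFE3 at 110.8 to 153.1 CPM, HSPB11 in the EVsub and CAMTA1 libraries, and HSPB1 overlaps across most groups.

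The muscle members went in different directions. HSPB3 (chromosome 5, 54455699 to 54456377, plus strand) is a gene of muscle cells. It had 6, 4 and 1 counts in EV, 55, 51 and 73 in YAP-TFE3 and 52, 55 and 32 in YAP5SA. The log2 fold changes were 3.63 (SE 0.48, adjusted p = 9.97e-07 by edgeR) and 3.82 (SE 0.48, adjusted p = 6.28e-07), and the first was 3.52 without YAP-TFE3 replicate 3. TAZ-CAMTA1 libraries had 25, 21 and 32 counts and the libraries labelled TAZ4SA 19, 22 and 8, the latter with a log2 fold change of 2.17 (SE 0.57, adjusted p = 0.00275). All of these libraries were above EV. Unlike CRYAB and HSPB8, HSPB3 did not pass between YAP-TFE3 and YAP5SA, whose libraries overlapped (log2 difference -0.19, SE 0.32, adjusted p = 0.638, and -0.31 without YAP-TFE3 replicate 3). TAZ-CAMTA1 was lower than YAP-TFE3 (log2 fold change -1.05, edgeR adjusted p = 0.0152), a call lost without TAZ-CAMTA1 replicate 2 (-0.92, adjusted p = 0.0663) and kept without YAP-TFE3 replicate 3 (-0.94, adjusted p = 0.0443).

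HSPB6 (HSP20, a phosphoprotein of smooth and heart muscle, chromosome 19, 35754566 to 35758079, minus strand) was lower with both hyperactive forms than in EV, and higher with each fusion than with its hyperactive parent. EV libraries had 4.90, 4.72 and 4.36 CPM, the libraries labelled TAZ4SA 3.13, 2.79 and 2.47, and YAP5SA 2.41, 3.66 and 2.21, all below EV. The log2 fold changes were -0.74 (SE 0.21, adjusted p = 0.00562 by edgeR) and -0.77 (SE 0.21, adjusted p = 0.00540). YAP-TFE3 libraries, at 4.84, 5.68 and 6.30 CPM, overlapped EV (log2 fold change 0.27, edgeR adjusted p = 0.279, and 0.17 without YAP-TFE3 replicate 3) and were above YAP5SA by 1.03 on the log2 scale (edgeR adjusted p = 2.14e-04, and 0.94 without YAP-TFE3 replicate 3, adjusted p = 0.00126). TAZ-CAMTA1 exceeded the libraries labelled TAZ4SA by 0.91 (edgeR adjusted p = 7.51e-04), with a wide spread of 4.92, 3.66 and 7.10 CPM. An unnamed gene on the opposite strand covers 38.3% of the HSPB6 exon bases.

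HSPB7, the cardiovascular member (chromosome 1, 16014028 to 16019594, minus strand), had between 1 and 23 counts in every library. It had 5, 3 and 3 counts in EV, 10, 14 and 23 in YAP-TFE3 and 6, 7 and 12 in YAP5SA. It rose in YAP-TFE3 (log2 fold change 1.70, SE 0.45, adjusted p = 0.00326 by edgeR, and 1.38 without YAP-TFE3 replicate 3, adjusted p = 0.0237), and TAZ-CAMTA1 with 4, 5 and 2 counts was lower than YAP-TFE3 (-1.90, adjusted p = 0.00137, and -1.58 without that replicate, adjusted p = 0.0113). With no filter beyond 1 count, both calls were kept (1.72 with adjusted p = 0.00473, and -1.91 with adjusted p = 0.00140). In YAP5SA the log2 fold change was 1.33 (edgeR adjusted p = 0.0336). That call was lost with DESeq2 (adjusted p = 0.0769), with total-count scaling (0.0565), with no filter beyond 1 count (0.0784), without YAP5SA replicate 3 (1.07, 0.145) and without EV replicate 1, 2 or 3 (1.5, 1.18 and 1.33). The libraries labelled TAZ4SA did not pass against EV at 1.20 (edgeR adjusted p = 0.0506) but passed at 1.56 without TAZ4SA replicate 3 (adjusted p = 0.0114). They were above TAZ-CAMTA1 (log2 fold change of TAZ-CAMTA1 -1.40, edgeR adjusted p = 0.0205), a call lost without TAZ4SA replicate 1 (-1.06), TAZ4SA replicate 2 (-1.30) or TAZ-CAMTA1 replicate 3 (-1.08), with DESeq2 (adjusted p = 0.0507), with no filter beyond 1 count (0.0501) and with the groups compared only (0.0518).

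Muscle markers moved in part with these members. Of 7 markers 4 were tested, and in both the libraries labelled TAZ4SA and YAP5SA, DES, MYOD1 and TNNT2 rose and TTN fell, while MYOG and ACTC1 had at most 3 counts in every library of these groups. The summed muscle level was 25.3 to 46.3 CPM in TAZ4SA, 15.5 to 38.7 in YAP5SA, 11.1 to 12.3 in YAP-TFE3 and 14.1 to 19.2 in EV. The YAP-TFE3 sum was the lowest of the 8 groups, but the sums differ in make-up. Their largest part was TTN in EV (14.8 CPM) and YAP-TFE3 (10.35 CPM), and MYOD1 in TAZ4SA (21.6 CPM) and YAP5SA (13.4 CPM). TTN itself was lower in TAZ4SA (7.06 CPM) and YAP5SA (6.99 CPM) than in YAP-TFE3. Epithelial markers, led by KRT8, summed to 3011 to 4022 CPM in YAP5SA, 1886 to 2154 in TAZ4SA, 401 to 510 in TAZ-CAMTA1, 243 to 352 in YAP-TFE3 and 198 to 214 in EV. The part of these markers in the HSPB3, HSPB6 and HSPB7 values was not tested. In bulk RNA, fewer cells with a transcript and less of it per cell cannot be told apart.

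Counted over the 7 tested members other than CRYAB, 3 passed in YAP-TFE3 against EV (HSPB3, HSPB7 and HSPB8), all higher, with a median log2 fold change of 0.27 beside -0.01 over all tested genes. At the same threshold edgeR called 48.2% of all tested genes there (25.6% higher, 22.6% lower), so the count was near the background. YAP5SA and the libraries labelled TAZ4SA each had 4 of the 7 higher and 1 lower, against backgrounds of 44.3% (22.7% higher, 21.6% lower) and 49.2% (25.1% higher, 24.2% lower) of all genes called. Left to the 5 members other than CRYAB, HSPB3 and HSPB7, the higher and lower counts were 1 and 0 in YAP-TFE3, 2 and 1 in YAP5SA and 3 and 1 in the libraries labelled TAZ4SA. TAZ-CAMTA1 against EV, where 4.98% of all genes were called (3.55% higher, 1.44% lower), is described by its median of 0.17 over the 7, and nothing is read from it because this contrast chose the gene. Full-length TFE3 had 0 of the 7 members called by edgeR or by DESeq2 and 0 at an unadjusted p under 0.05, with 0.035% of all genes called (0.035% higher, 0% lower) and 757 genes at an unadjusted p under 0.05. YAP-TFE3 against YAP5SA called 3 of 8, CRYAB, HSPB6 and HSPB8, all higher, where 28.1% of all genes were called higher and 24.3% lower. TAZ-CAMTA1 against YAP-TFE3 called 3 of the 7 without CRYAB, all lower, with 42.7% of all genes called (19.9% higher, 22.8% lower). TAZ-CAMTA1 against the libraries labelled TAZ4SA called 4 of the 7, 1 higher and 3 lower, with 53.7% of all genes called (26.9% higher, 26.8% lower), and the count was 1 without TAZ4SA replicate 1 and 2 without TAZ4SA replicate 2. HSPB1 was among the lower (log2 fold change -0.35, edgeR adjusted p = 0.0470), a call lost without TAZ4SA replicate 1 (-0.28) or 2 (-0.35), without TAZ-CAMTA1 replicate 1 or 2 (both -0.35), with total-count scaling (-0.15) and with the replicate number as a block (-0.35, adjusted p = 0.0532). CAMTA1 against EVsub called 1 of 8, HSPB8, which was lower, with 1.83% of all genes called (1.26% higher, 0.57% lower). The 6 comparisons with EV share its 3 libraries.

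**Figure D4:**
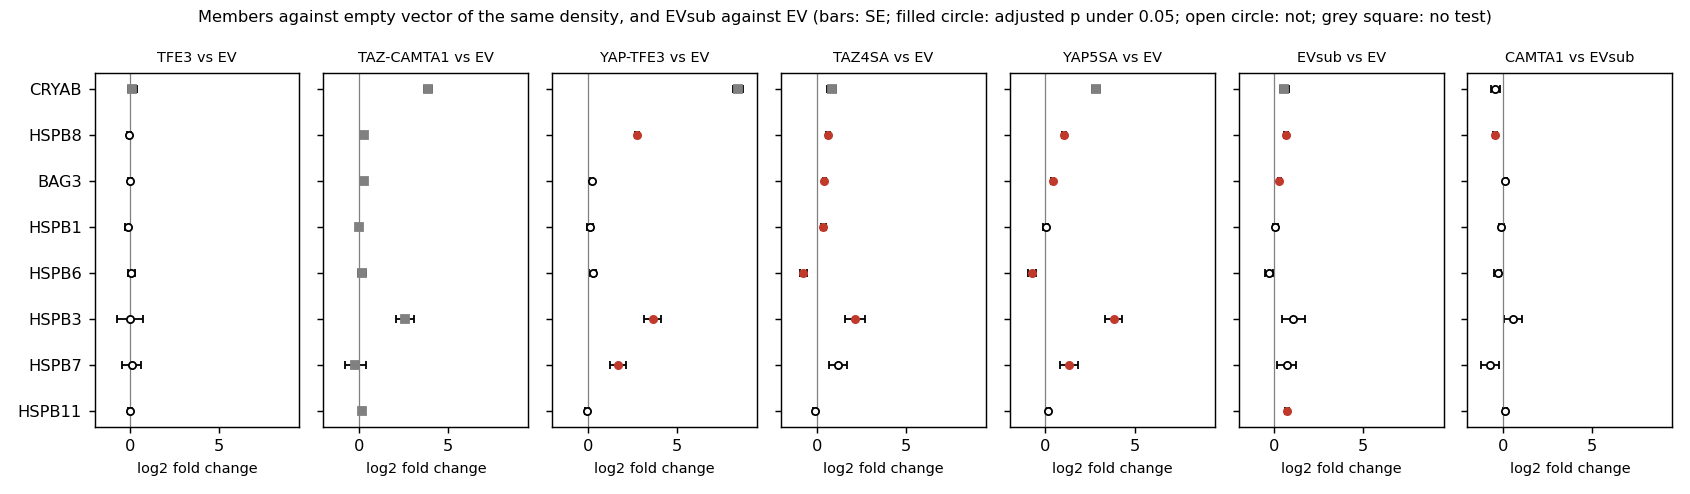
Log2 fold change (x axes) of the 8 tested members in 7 comparisons, with the SE as a bar. Filled circles passed an adjusted p of 0.05, open circles did not, and grey squares carry no test. CRYAB lies far to the right of the other members in YAP-TFE3 against EV at 8.41, while every member lies near 0 in TFE3 against EV apart from the wide bars of HSPB3 and HSPB7.

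HSPB8, HSPB11 and BAG3 were higher before confluence. In EVsub against confluent EV, 3 of the 7 members other than CRYAB rose, with 36.8% of all tested genes called (19.8% higher, 17.1% lower). HSPB11 had 31.6, 29.2 and 30.2 CPM in EVsub and 18.7, 19.0 and 18.4 in EV (log2 fold change 0.70, SE 0.11, adjusted p = 6.04e-05 by edgeR), which was the only comparison with EV in which it passed. It was as high in the sub-confluent CAMTA1 libraries, at 34.4, 34.7 and 28.5 CPM, which overlapped EVsub. HSPB8 was higher in EVsub by 0.65 (SE 0.11, adjusted p = 1.06e-04 by edgeR), a size like that in the libraries labelled TAZ4SA. BAG3, at 36.2, 37.1 and 39.5 CPM, was higher by 0.28 (edgeR adjusted p = 0.0220), a call lost without EV replicate 1 (0.24), EV replicate 2 (0.29) or EVsub replicate 3 (0.25). CRYAB was at 6.59, 6.44 and 6.61 CPM in EVsub, above all EV libraries, with a log2 difference of 0.55 (SE 0.26).

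Larger chaperones and the heat shock factors formed a list of 20 genes, of which 19 were tested. In EVsub 15 of 19 rose and none fell, where 19.8% of all genes were called higher and 17.1% lower, with a median log2 fold change of 0.54 beside -0.02 over all tested genes. CHORDC1, an HSP90 co-chaperone, rose by 1.36, HSPH1, an HSP110 exchange factor of HSP70, by 1.04, HSPA4L, its relative, by 1.03 and HSP90AA1, the inducible HSP90, by 1.02 (edgeR adjusted p = 3.29e-05, 2.22e-06, 6.20e-05 and 5.95e-06). The same list was mixed in YAP-TFE3, with 5 higher, 3 lower and a median of -0.11, a count near the 48.2% of all genes called there. The 4 largest called changes there were those of DNAJB4 (0.90, adjusted p = 0.00104), HSPA4 (0.66, adjusted p = 1.93e-07), HSF2 (0.57, adjusted p = 7.67e-05) and HSPH1 (0.44, adjusted p = 0.00326). Without YAP-TFE3 replicate 3 the count was 6 higher and 7 lower, and those 4 genes had 1.13, 0.69, 0.64 and 0.45. Among the 7 lower was HSPA8, the partner of HSPB8 and BAG3, at -0.82 (edgeR adjusted p = 6.32e-06). With all libraries HSPA8 was at -0.35 and did not pass (edgeR adjusted p = 0.134). YAP5SA had 6 higher and 1 lower and the libraries labelled TAZ4SA 6 and 3, beside 44.3% and 49.2% of all genes called. With total-count scaling these became 4 and 3, and 3 and 4, and the list medians turned from 0.14 and 0.12 to -0.04 and -0.08. In TAZ-CAMTA1 against EV, which carries no test, the median was -0.04 and the DNAJB4 value 1.24, and TFE3 and CAMTA1 had no gene past the threshold by edgeR.

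Partners and clients of BAG3, a list of 13 genes, were all tested. YAP-TFE3, YAP5SA and the libraries labelled TAZ4SA each had 8 higher and 2 lower, with medians of 0.80, 0.63 and 0.77, where 25.6%, 22.7% and 25.1% of all genes were called higher. AMOTL2, a junction protein that binds YAP, is also named in the study as a known target gene of YAP and TAZ. It rose by 2.62 in YAP-TFE3, 3.86 in YAP5SA and 4.02 in the libraries labelled TAZ4SA (edgeR adjusted p = 2.09e-15, 8.36e-18 and 3.73e-18). The actin crosslinker FLNC, a client of the BAG3 complex in muscle, rose by 1.76, 1.79 and 1.80. SQSTM1, the autophagy receptor p62, rose by 1.51 in YAP-TFE3 and was higher there than in YAP5SA by 1.07 (edgeR adjusted p = 4.34e-08). AMOTL2 went the other way between them, with YAP-TFE3 lower by 1.24, written -1.24 (adjusted p = 2.70e-10). SYNPO2, the adaptor that joins BAG3 to autophagosome membranes, fell by 2.00 in YAP5SA and by 1.28 in the libraries labelled TAZ4SA. EVsub had 5 of the 13 higher, beside 19.8% of all genes, and TAZ-CAMTA1 against EV, with no test, had a median of 0.16. Without YAP-TFE3 replicate 3 the YAP-TFE3 count was 8 higher and 3 lower, with 2.67 for AMOTL2 and 1.94 for FLNC.

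**Figure D5:**
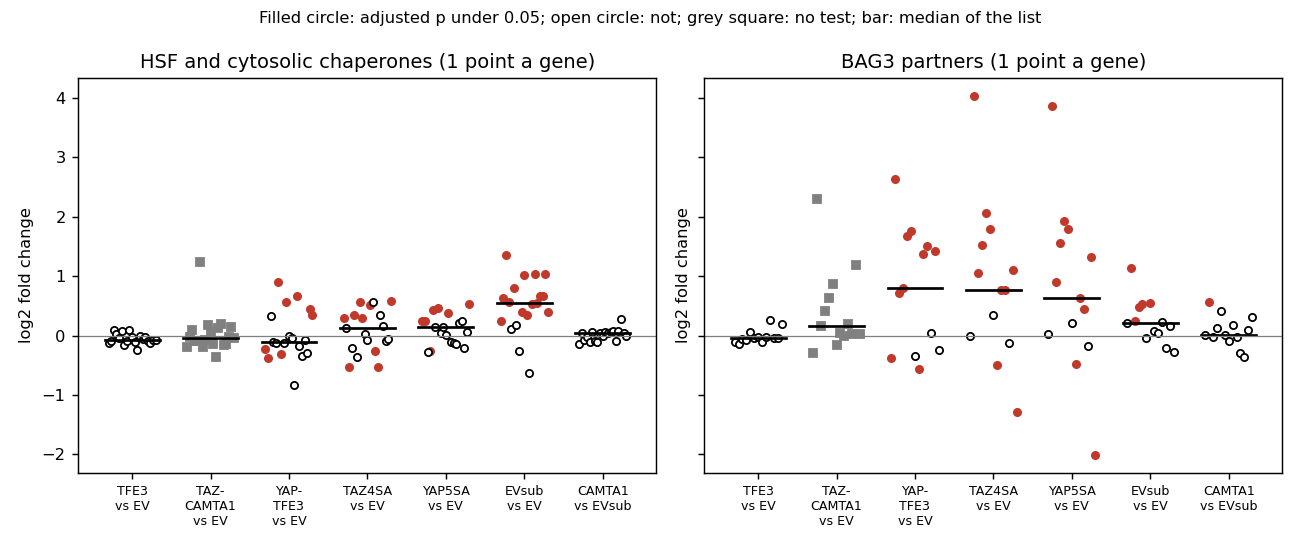
Log2 fold change (y axis) of each tested gene (1 point) of the 19 chaperone and heat shock factor genes (left) and the 13 BAG3 partners (right) in 7 comparisons, with the list median as a bar. Filled circles passed an adjusted p of 0.05, open circles did not, and grey squares carry no test. In EVsub against EV the chaperone median is 0.54, and in YAP-TFE3 against EV it is -0.11 while that of the BAG3 partners is 0.80.

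Filament proteins that small heat shock proteins bind did not follow CRYAB. Of 6 tested genes, the intermediate filament genes VIM and NES and the giant sarcomere gene TTN fell in YAP-TFE3 by 0.77, 1.22 and 0.52 on the log2 scale (edgeR adjusted p = 4.46e-05, 6.91e-06 and 0.00386), and SYNM rose by 0.46 (adjusted p = 0.00473), beside 48.2% of all genes called. Without YAP-TFE3 replicate 3 these values were -0.75, -1.28, -0.52 and 0.48. In TAZ-CAMTA1 against EV, with no test, the 6 values lay between -0.12 and 0.16. The libraries labelled TAZ4SA had 3 higher and 1 lower and YAP5SA 1 and 1, beside 49.2% and 44.3% of all genes called.

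Among 12154 genes averaging 100 counts or more, the profiles most like that of CRYAB over the 24 libraries, by Pearson's r of log2 CPM, were those of PAM (0.973), TRIML2 (0.971), MORC4 (0.966), PKD1L2 (0.963) and LMOD1 (0.960). The points share groups and the high YAP-TFE3 libraries, and the values are a description. PAM, which amidates secreted peptides, was at 335 CPM in EV, 474 in TAZ-CAMTA1 and 798 in YAP-TFE3, a far shallower slope than that of CRYAB. LMOD1, the smooth muscle leiomodin, was at 1.43, 2.94 and 32.1 CPM in the same groups. Of the members, HSPB8 was the most alike at 0.888 over 24 libraries and 0.472 over the 21 without YAP-TFE3, while HSPB3 had 0.748 and 0.773, so that the likeness of HSPB8 rested more on the YAP-TFE3 libraries. HSPB1 had 0.135 and BAG3 0.108.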

How the data were processed

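Poly-A RNA of 24 SW872 libraries was sequenced after a stranded library kit. The deposited files hold raw counts per Ensembl gene, 1 file a library. Per the study's methods the authors ran bcbio-nextgen with hg38 and its Ensembl annotation. Those methods also name Salmon with tximport for gene counts. Whether the deposited counts, which are whole numbers, came from these or from the alignments, and with which strand setting, was not given in the sources used here. Samples were grouped by their titles. Total counts ranged from 19700277 to 35287476, and precision falls for genes with few counts.

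Counts of 56104 genes were matched by identifier to GENCODE 44 for coordinates, exon lengths and overlaps. Genes averaging 5 or more counts (19997) were fitted over all libraries with edgeR 4.0.16 (R 4.3.3) by the quasi-likelihood test with TMM scaling, and p-values were adjusted by Benjamini-Hochberg over all of them at 0.05. The SE of a log2 fold change was taken as its absolute value divided by the square root of its quasi-likelihood F. CPM uses TMM-scaled totals, and CPM per kb divides by union exon length. Correlations used log2 CPM with a prior count of 2. The pipeline was tested on simulated data with 200 changed genes.

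The members and lists were chosen with earlier results of these data known. Named genes were all members, at most 4 called genes a list and comparison with the largest change that averaged 100 or more counts, all neighbours within 100 kb, markers, WWTR1 and the 5 genes most like CRYAB. Alternatives were DESeq2 1.42.0, its size factors in edgeR, total-count scaling, a mean of 20 counts, no filter beyond 1 count, the replicate number as a block, only the groups compared, and leaving out each library. List counts under other settings, and the HSPA8 values in YAP-TFE3, were added after seeing the data. The largest correlation of deviations shared by same-numbered libraries was 0.216, and no comparison had every pair over 0.1.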

Additional observations from a re-analysis of the deposited data

How the results depend on the processing

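Of 65 member values with a test 27 were called, and none of the 27 changed sign under the alternatives run. Of 834 recomputed values of these, 758 kept their direction and their side of the threshold, 37 lost a call, 7 gained one and 32 changed sign, as did 4 of 193 recomputed values that carry no test. Members called in CAMTA1 against EVsub went from 1 to 2 with no filter beyond 1 count and to 0 in each fit that left out 1 library. Members called in TAZ-CAMTA1 against TAZ4SA other than CRYAB ranged from 1 to 5 over such fits, with 1 without TAZ4SA replicate 1 and 2 without TAZ4SA replicate 2, beside 4. With the replicate number as a block, members called went from 4 to 3 in that comparison and were the same number in the other 9. Same-numbered libraries shared a mean correlation of deviations from -0.0257 to 0.129, with every library closest to its own number in 3 of 10 comparisons. Total-count scaling moved the median of all genes by -0.20 in TAZ4SA and by -0.18 in YAP5SA against EV on the log2 scale, and by 0.20 in TAZ-CAMTA1 against TAZ4SA. A fit that left a group with 2 libraries took its spread from all groups. Low counts limit HSPB2, HSPB3, HSPB7 and CRYAA.

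The values that changed sign, all log2 fold changes, were these. HSPB1 in YAP5SA against EV became -0.19 with total-count scaling, -0.0004109 with the replicate block, -0.003088 with the groups compared only and -0.16 to 0.13 with 1 library left out. HSPB11 in YAP5SA against EV became -0.068 and BAG3 in TAZ-CAMTA1 against TAZ4SA 0.033 with total-count scaling. In TFE3 against EV, no filter beyond 1 count gave 0.0044 for HSPB3, 0.0024 for HSPB11 and 0.024 for BAG3, and BAG3 was 0.0073 with total-count scaling, 0.003551 with a mean of 20 counts and 0.003578 with the groups compared only. With 1 library left out, the TFE3 values ranged from -0.021 to 0.27 for CRYAB, -0.87 to 0.41 for HSPB3, -0.075 to 0.17 for HSPB6, -0.23 to 0.25 for HSPB7, -0.093 to 0.11 for HSPB11 and -0.083 to 0.073 for BAG3. In TAZ-CAMTA1 against EV they ranged from -0.015 to 0.027 for HSPB1, -0.12 to 0.37 for HSPB6 and -0.48 to 0.15 for HSPB7. In YAP-TFE3 against EV they ranged from -0.098 to 0.28 for HSPB1 and -0.14 to 0.034 for HSPB11. HSPB1 in YAP-TFE3 against YAP5SA ranged from -0.10 to 0.29. In TAZ-CAMTA1 against YAP-TFE3 the ranges were -0.27 to 0.11 for HSPB1, -0.40 to 0.11 for HSPB6 and -0.0071 to 0.082 for BAG3. The cause was not tested.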
